A study of Mus musculus with 6 samples.

Results

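Enzymes that write, maintain, read and remove cytosine methylation were followed in megakaryocyte progenitors of mice that carry GATA1s. The members are the genes Dnmt1, Dnmt3a, Dnmt3b, Uhrf1, Uhrf2, Tet1, Tet2, Tet3, Mbd2 and Tdg, taken through every probe set whose platform annotation names 1 gene. By that rule 9 of the 10 genes had a value, on 23 probe sets, out of 18193 genes on 34945 such probe sets. Tdg, the thymine DNA glycosylase, was covered only by probe sets annotated to several genes, so no level is given for it.

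All 6 samples were C57BL/6 cells of the GATA1s genotype, in which GATA1, a transcription factor of megakaryocytes and red cells, is made without its first residues. The sort took lin-, Sca-1- cells positive for c-kit, CD150 and CD41. There were 3 Affymetrix arrays of adult bone marrow (12 to 18 weeks) and 3 of E13.5 fetal liver. Every sample shares the genotype, so nothing here separates GATA1s from full-length GATA1. The labels call the arrays biological replicates without saying how many animals each holds, so a p-value here speaks only of the spread among these 6 arrays.

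Methylation of cytosine next to guanine (CpG) is set by DNMT3A and DNMT3B and copied after replication by DNMT1, which UHRF1 brings to newly made DNA. TET enzymes oxidise methylcytosine, TDG cuts out the oxidised bases so that repair can restore cytosine, and MBD2 binds methylated CpG and carries the NuRD repressor complex. In blood formation DNMT3A and TET2 are known for limiting stem cell self-renewal, and both are often mutated in human myeloid disease.

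The de novo methyltransferases were higher in fetal liver progenitors, and the other genes changed little or unevenly. All 5 probe sets of Dnmt3a and both of Dnmt3b rose, by log2 fold changes from 0.48 to 1.30 (always fetal liver over bone marrow). The maintenance genes Dnmt1 and Uhrf1 were bright in both tissues, and of their 5 probe sets only 1, for Uhrf1, passed the test. All 4 probe sets of Tet1 had every fetal liver array below every bone marrow array, yet none passed the test.

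In numbers, 8 of the 23 probe sets were higher and 0 lower at an adjusted p under 0.05 (limma over all 27022 probe sets above the filter, Benjamini-Hochberg). Of all probe sets tested 26.8% were called, 11.8% higher and 15.0% lower. At an unadjusted limma p under 0.05, 4 of the 23 were lower, beside 20.4% of all probe sets. Ordinary t statistics with adjustment called 1 lower, beside 8.25%. Among all called probe sets 44.1% were higher, against 55.7% with quantile normalization and 78.7% with median centring. All 23 passed the filter on low signal, a mean of 22.9, and no single array value lay under the level of unspiked bacterial controls, 10.6. Taking the brightest probe set of each gene, 2 of 9 genes were called, both higher, against 33.2% of 11645 genes (15.9% higher, 17.3% lower). The arrays of the tissues did not overlap on 9 probe sets in the higher direction and 5 in the lower, beside 43.0% of all probe sets (21.0% and 22.0%). For the brightest probe sets this held for 3 and 2 of the 9 genes, beside 50.5% of all genes (26.7% and 23.7%). The median log2 fold change of the 9 was 0.12, beside 0.04 over all genes taken the same way. In bulk RNA, fewer cells of a type and less RNA per cell cannot be told apart.

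**Figure D1:**
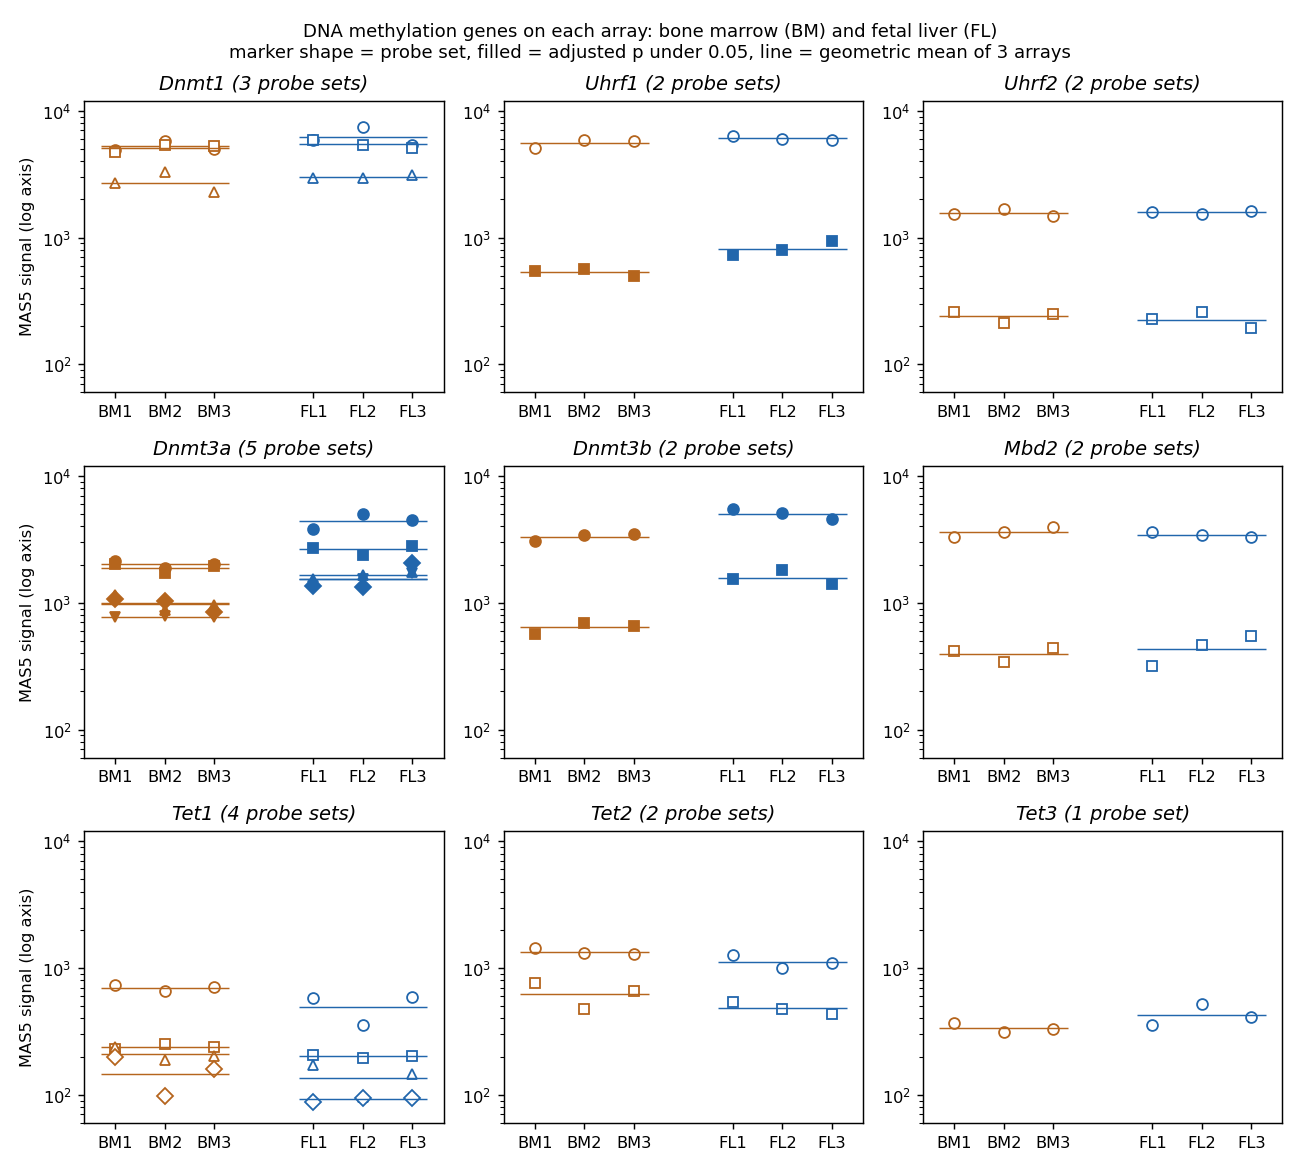
MAS5 signal (log axis) of each probe set of the 9 genes on the 3 bone marrow (BM) and 3 fetal liver (FL) arrays; marker shapes are probe sets, filled markers passed an adjusted p of 0.05, and lines are geometric means of 3 arrays. The Dnmt3a and Dnmt3b markers are all filled and sit higher on every fetal liver array, probe set by probe set, while the Dnmt1 and Uhrf2 markers overlap between the tissues.

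Dnmt1, the methyltransferase that copies methylation onto the new strand, is covered by 3 probe sets, and the arrays of the tissues overlapped on each. The brightest had signals of 4939.5, 5832 and 4985 in bone marrow replicates 1 to 3 and 5849, 7509 and 5399 in fetal liver replicates 1 to 3. Fetal liver replicate 2 stood highest, and fetal liver replicate 3 lay below bone marrow replicate 2. Its log2 fold change was 0.24 ± 0.12 (SE, n = 3 against 3, limma adjusted p = 0.181), with a 95% interval of -0.03 to 0.52, and was 0.10 without fetal liver replicate 2. The other probe sets gave 0.10 and 0.15 (adjusted p = 0.454 and 0.415). Median centring, which adds 0.34 to every value, called all 3 higher (0.58, 0.43 and 0.49 in order of signal). Both brighter probe sets carry the suffix _x, which marks probes that can match other sequences.

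Uhrf1, the partner that binds hemimethylated CpG, gave 2 answers from 2 probe sets that cite the same representative sequence. On the brighter one (1415810_at) the signals were 5061, 5916 and 5795 in bone marrow and 6309, 6024 and 5919.8 in fetal liver. All fetal liver arrays were above all bone marrow arrays, but by little, and the log2 fold change of 0.12 ± 0.08 was not called (limma adjusted p = 0.291) and was 0.055 without bone marrow replicate 1. On the dimmer one (1415811_at) the signals were 541, 563 and 495 against 726, 796 and 948. There the tissues were well apart and the probe set rose by 0.62 ± 0.14 (limma adjusted p = 0.00939). With the mean of both the gene was called, at 0.37 (adjusted p = 0.00791), and median centring called the brighter one too (0.46), so the call of Uhrf1 depends on the probe set and the scaling.

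Uhrf2, a relative of UHRF1 that binds hydroxymethylcytosine, showed no difference at this precision. The mean signal of the brighter of its 2 probe sets was 1566 ± 104 in bone marrow against 1590.3 ± 46.5 (SD, n = 3 each). The log2 fold change was 0.02 with a 95% interval of -0.20 to 0.24 (limma adjusted p = 0.885), and the dimmer one gave -0.10 (adjusted p = 0.735). Median centring called the brighter one higher (0.36) and turned the dimmer one to 0.24.

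DNMT1 and UHRF1 act at replication forks, so genes of S phase were read beside them. Of 16 such genes 4 rose, namely Tyms (0.95), Gins2 (0.66), Tk1 (0.53) and Gins1 (0.31), and 0 fell, beside 15.9% and 17.3% of all genes. The list median was 0.13. Rrm1 (0.25) and Rrm2 (0.22) just missed the threshold (limma adjusted p = 0.05004 and 0.0523). The arrays of the tissues did not overlap on 6 of the 16, all higher, beside 26.7% of all genes. The 6 subunits of the MCM helicase lay between -0.05 and 0.10, and none was called. The part of cell cycle differences in the values of Dnmt1 and Uhrf1 was not tested.

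Dnmt3a, which methylates CpG sites that carried no mark, had the largest change among the 9 brightest probe sets. That probe set (1423064_at) gave 2153, 1873 and 2026 in bone marrow and 3800.1, 5032 and 4462 in fetal liver. The lowest fetal liver array was well above the highest bone marrow array. The mean rose from 2018 ± 140.2 to 4431 ± 617 (SD, n = 3 each), a fold of 2.19 and a log2 fold change of 1.13 ± 0.11 (limma adjusted p = 8.29e-05).

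A second Dnmt3a probe set, 1423066_at, was the tightest in bone marrow, at 774, 781 and 768, and gave 1357, 1532 and 1719 in fetal liver. It rose by 0.98 ± 0.12 (limma adjusted p = 0.000251). The other 3 rose by 0.73, 0.66 and 0.48, with adjusted p between 0.00218 and 0.0215. All 5 cite the same representative sequence, so they are repeated readings of 1 gene and not independent evidence. The annotation used does not say which Dnmt3a isoform each reads. Of these, 1460324_at was the least firm: its fetal liver signals were 1356, 1322 and 2056, and without fetal liver replicate 3 its value was 0.45 (adjusted p = 0.0638). It was also lost without bone marrow replicate 3 (0.56, adjusted p = 0.0875).

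Dnmt3b, the de novo enzyme most active in early embryos, rose on both probe sets but by different amounts. The brighter, 1449052_a_at, had signals of 3076, 3429.8 and 3476 in bone marrow and 5518, 5104 and 4560.5 in fetal liver. No array of one tissue reached the other, and the log2 fold change was 0.60 ± 0.09 (limma adjusted p = 0.00123), a fold of 1.52. The dimmer, 1418351_a_at, went from 569.7, 696 and 662 to 1551, 1817 and 1399. It rose by 1.30 ± 0.14 (limma adjusted p = 0.000101), a fold of 2.47. The 95% intervals of these probe sets, 0.39 to 0.81 and 0.999 to 1.61, do not meet. Both carry the suffix _a, for probes shared by several transcripts of a gene, so the size of the rise of Dnmt3b is not settled between them.

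**Figure D2:**
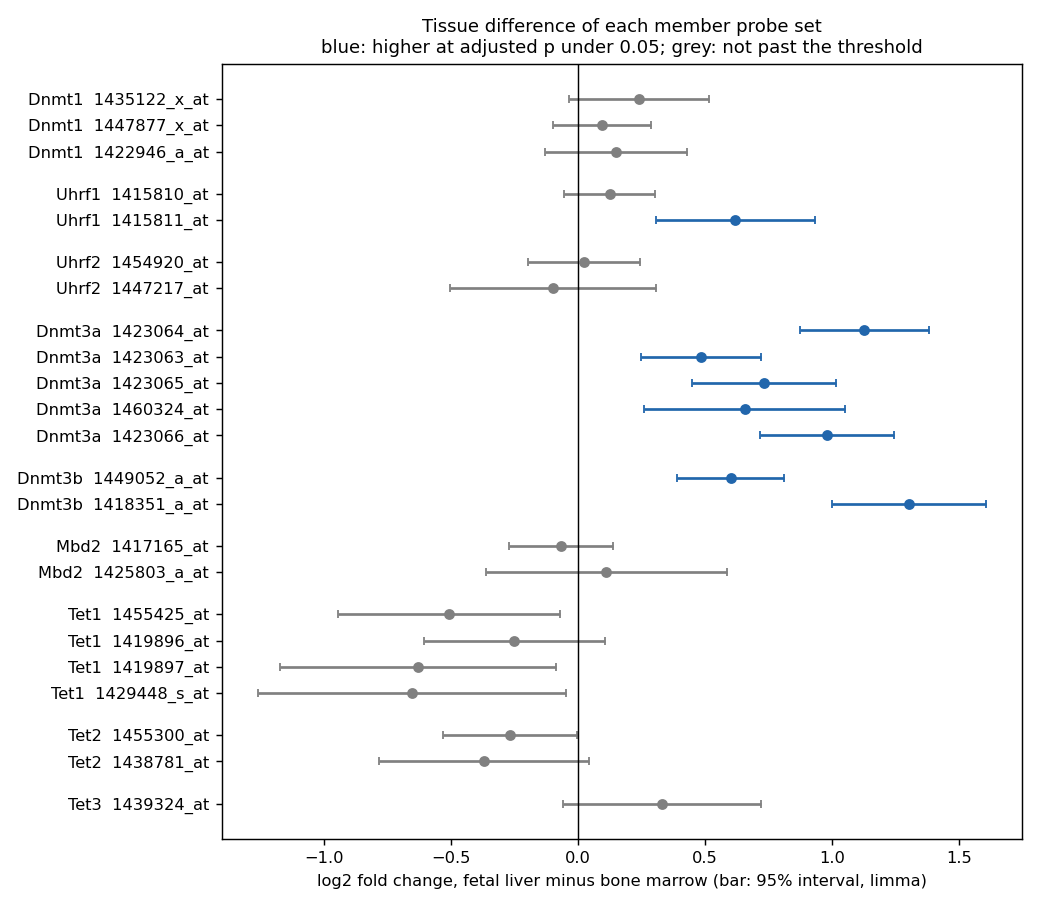
Log2 fold change of each of the 23 probe sets (fetal liver over bone marrow) with its 95% interval from limma; blue points passed an adjusted p of 0.05. The 7 points of Dnmt3a and Dnmt3b lie between 0.48 and 1.30, and the 4 of Tet1 between -0.65 and -0.25.

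The sequence before the start of the genes with the largest values in each direction is shown, because CpG pairs are what these enzymes act on. Each run is the 250 bases before the most upstream RefSeq start (GRCm38.p6), read 5′ to 3′ on the gene's own strand, with every CpG in capitals. Dnmt3a is at chr12:3806730-3806979 (plus strand), Dnmt3b at chr2:153649199-153649448 (plus strand) and Tet1 at chr10:62887325-62887574 (minus strand).
Dnmt3a: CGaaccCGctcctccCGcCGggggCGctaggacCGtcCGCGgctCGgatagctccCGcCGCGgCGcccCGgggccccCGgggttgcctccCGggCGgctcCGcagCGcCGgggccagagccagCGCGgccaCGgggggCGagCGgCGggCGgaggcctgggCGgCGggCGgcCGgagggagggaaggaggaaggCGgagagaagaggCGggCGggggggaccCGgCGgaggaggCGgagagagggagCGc
Dnmt3b: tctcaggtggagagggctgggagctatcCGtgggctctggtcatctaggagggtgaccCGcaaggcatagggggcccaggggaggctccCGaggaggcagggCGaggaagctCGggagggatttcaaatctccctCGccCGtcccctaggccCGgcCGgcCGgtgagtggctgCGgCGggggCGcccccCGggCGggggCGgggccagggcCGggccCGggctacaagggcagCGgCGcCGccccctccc
Tet1: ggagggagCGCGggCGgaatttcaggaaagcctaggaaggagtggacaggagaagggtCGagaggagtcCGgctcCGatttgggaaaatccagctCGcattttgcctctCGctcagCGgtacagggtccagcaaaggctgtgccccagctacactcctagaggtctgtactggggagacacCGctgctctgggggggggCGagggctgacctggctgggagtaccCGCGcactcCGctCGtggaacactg

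The Dnmt3a window held 38 CpG pairs, the Dnmt3b window 21 and the Tet1 window 15. Over 32851 windows of the same length the median was 6, with quartiles of 2 and 16, so Dnmt3a and Dnmt3b were above the upper quartile and Tet1 just under it. Windows were found for 8 of the 9 genes, with 13 starts in all, and Dnmt3a has 3 starts whose windows held 15 to 40. The letters GATAA, the core bound by GATA factors, searched on both strands, occurred in 0 of the 13 windows and in 22.6% of all windows. The GC box GGGCGG, which itself contains a CpG, occurred on either strand in 11 of the 13 and in 32.7% of all windows, with 5 copies for Dnmt3a, 3 for Dnmt3b and 1 for Tet1. The 13 windows were 50.4% to 83.6% G and C, against a median of 52.4% over all windows. The motif shares were not matched for base content or for several starts of 1 gene, so they show neither a lack nor an excess of motifs. Methylation of the CpG pairs in these windows was not measured.

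Change between members can be compared within an array, where scaling of the array cancels. The log2 difference between the brightest probe sets of Dnmt3a and Dnmt1, set to 0 at the bone marrow mean, was 0.76, 0.80 and 1.10 on the fetal liver arrays. On the bone marrow arrays it was 0.18, -0.26 and 0.08, so the tissues did not overlap. For Dnmt3b against Dnmt1 the fetal liver arrays gave 0.57, 0.10 and 0.41 and the highest bone marrow array 0.14, so these overlapped. With the mean of the probe sets of each gene this difference was 0.79 in place of 0.36, and that of Dnmt3a against Dnmt1 was 0.63 in place of 0.89.

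Dnmt3a and Dnmt3b moved apart from Tet1 on all 3 fetal liver arrays. The difference from Tet1 was 1.20, 2.30 and 1.40 for Dnmt3a and 1.02, 1.60 and 0.71 for Dnmt3b, against bone marrow values no higher than 0.03 and 0.13. Fetal liver replicate 2 gave the largest value of both. The order of Dnmt3a and Dnmt3b themselves is not settled: their difference was 0.53 with the brightest probe sets and -0.16 with the mean of each gene's probe sets. These pairs were chosen after their values were seen and carry no test.

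**Figure D3:**
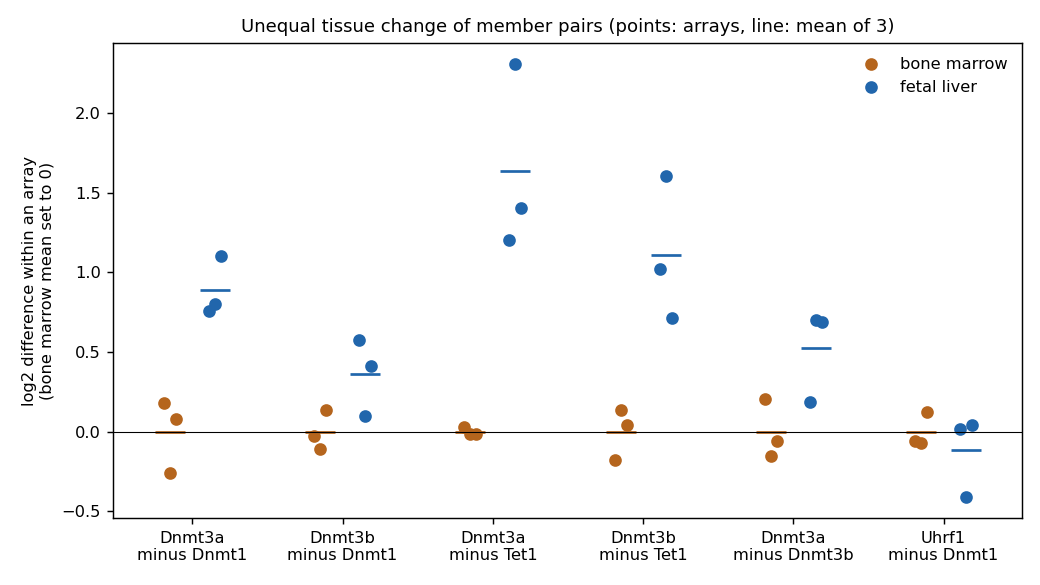
Log2 difference between the brightest probe sets of 2 genes on the same array, with the bone marrow mean of each pair set to 0; points are arrays and lines are means of 3. Fetal liver points lie apart from bone marrow points for Dnmt3a against Dnmt1 (lowest 0.76) and for both genes against Tet1, and overlap for Uhrf1 against Dnmt1.

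Tet1, the dioxygenase that starts removal of methyl marks in embryonic cells, was lower in fetal liver on every array but did not pass the test. On the brightest probe set the signals were 736, 660.1 and 712 in bone marrow and 576, 355 and 588 in fetal liver. Fetal liver replicate 2 was the lowest by a wide margin. The log2 fold change was -0.51 ± 0.20 (limma adjusted p = 0.0829), with a 95% interval of -0.94 to -0.07.

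Its other 3 probe sets gave -0.25, -0.63 and -0.65 (limma adjusted p = 0.282, 0.0836 and 0.106). None of their fetal liver arrays reached a bone marrow array, a pattern in the lower direction that 22.0% of all probe sets showed. The first, 1419896_at, was 0.09 with median centring and was called lower with ordinary t statistics (-0.25, adjusted p = 0.0356). With array weights in limma 1419897_at (-0.52, adjusted p = 0.0462) and 1429448_s_at (-0.67, adjusted p = 0.0374) were called lower. With the mean of the 4 probe sets Tet1 was called lower (-0.51, adjusted p = 0.0373). Without fetal liver replicate 1 the brightest (-0.62, adjusted p = 0.0498) and 1419897_at (-0.81, adjusted p = 0.0386) passed too, and 1429448_s_at did without bone marrow replicate 2 (-0.94, adjusted p = 0.0242). Other arrays acted the opposite way: without fetal liver replicate 2 the brightest was -0.27 (adjusted p = 0.186) and 1419897_at -0.39 (adjusted p = 0.226). Without bone marrow replicate 1, 1429448_s_at was -0.43 (adjusted p = 0.297).

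Tet2, the family member best known in blood, had lower means in fetal liver on both probe sets, and neither was called. Its brighter probe set had signals of 1442, 1302 and 1292 in bone marrow and 1258, 1008 and 1099 in fetal liver, which did not overlap. The log2 fold change of -0.27 ± 0.12 was not called (limma adjusted p = 0.127), except without fetal liver replicate 1 (-0.35, adjusted p = 0.0499), and was 0.07 with median centring. The dimmer probe set overlapped between tissues, at -0.37 (adjusted p = 0.173). It passed with array weights in limma (-0.47, adjusted p = 0.0333) and without bone marrow replicate 2 (-0.56, adjusted p = 0.0447). Without bone marrow replicate 1 it was -0.23 (adjusted p = 0.435), and with median centring -0.03 (adjusted p = 0.892).

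Tet3, a related dioxygenase known from the zygote, has 1 probe set, with 366, 314 and 329.8 in bone marrow and 355, 521 and 408 in fetal liver. The arrays overlapped, since fetal liver replicate 1 lay under bone marrow replicate 1, and the log2 fold change was 0.33 ± 0.17 (limma adjusted p = 0.195). Median centring called it higher (0.67), and without fetal liver replicate 2 it was 0.18. Its sign was opposite to that of Tet1 and Tet2, a difference that was not tested.

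Mbd2, the reader of methylated CpG, differed by less than the spread between arrays. The brighter of 2 probe sets had means of 3619 ± 316 and 3451 ± 174 (SD, n = 3 each), a log2 fold change of -0.07 with a 95% interval of -0.27 to 0.14 (limma adjusted p = 0.636) that became 0.27 with median centring. The dimmer gave 0.11 ± 0.21 (adjusted p = 0.736).

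Other genes of the pathway were read from 6 lists of 66 genes, 56 of them tested on their brightest probe set. Of these 6 rose and 5 fell, 19.6% in all, which is below the 33.2% of all genes. The methyl-CpG reader list held 7 tested genes, taken by family, so binding of methylated CpG is not implied for each. In it Mbd3 rose (0.48), and the zinc finger readers Zbtb4 (-1.36) and Zbtb38 (-0.52) fell. Zbtb4 went from 272, 335 and 364 to 150.2, 99.3 and 132 (limma adjusted p = 0.00123), and its other 2 tested probe sets fell as well. The 2 further tested probe sets of Zbtb38 were not called. Mbd3 and Zbtb38 each lost the call without any 1 array other than fetal liver replicate 1, and Zbtb38 was -0.18 (adjusted p = 0.333) with median centring.

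In the NuRD complex, the chromatin remodeller that includes MBD2 or MBD3, 10 of 11 genes were not called, with values from -0.11 to 0.29. The exception was the helicase Chd3, whose signals were 97.8, 129 and 109 in bone marrow and 11.9, 8.32 and 8.83 in fetal liver. The control level was above 2 of those fetal liver arrays, so Chd3 was at least 10.1-fold lower, by the ratio to the fetal liver mean with those arrays set to that level (limma adjusted p = 4.18e-05). Chd3 passed the filter only through its bone marrow signals. Its relative Chd4, the main NuRD ATPase, was at 0.29 and was not called.

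Partners of DNMTs and UHRF1 gave 1 call in 11, Cdca7l (-0.27), which was lost without any 1 array other than fetal liver replicate 1 and was 0.07 with median centring. Hells, the remodeller that opens DNA for methylation, was at 0.25 and Pcna, the replication clamp, at 0.14, neither called. Dnmt3l, the inactive cofactor of the de novo enzymes, had signals from 19.6 to 30.7 and did not differ beyond its spread (-0.27, adjusted p = 0.601). Dppa3, which blocks UHRF1 in germ cells, was below the control level on all 6 arrays.

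Base excision repair, the pathway in which TDG acts, had 2 genes higher and 1 lower of 11. The uracil glycosylase Smug1 rose from 237, 308 and 320.2 to 453, 514 and 518 (log2 fold change 0.79 ± 0.17, limma adjusted p = 0.00644). Ogg1 rose on its brightest probe set (0.52, adjusted p = 0.0456) but not on its other one (0.05), and Neil1 fell (-0.78, adjusted p = 0.0164). Ogg1 lost its call without any 1 array other than fetal liver replicate 1, with no filter and with the probe sets averaged. Neil1 lost it without bone marrow replicate 2 or 3, with quantile normalization (-0.57) and with median centring (-0.45). Apex1, Xrcc1, Lig3, Polb and Parp1 were not called.

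Of 8 methyl donor genes Mtrr (0.49) and Shmt1 (0.32) rose. Other probe sets of Shmt1 gave 0.21, 0.29 and 0.04 and were not called. With its probe sets averaged Shmt1 was not called either (0.22, limma adjusted p = 0.290). Mtrr lost the call without bone marrow replicate 3 or fetal liver replicate 3, and Shmt1 without any 1 of the 6 arrays. Of 8 tested TET partners and enzymes of 2-oxoglutarate, the TET cosubstrate, only Idh3b rose (0.33). It lost the call without any 1 of the bone marrow arrays or fetal liver replicate 3. Other probe sets of Idh3b, at 0.35 and 0.29, were not called, nor was the gene with its probe sets averaged (0.32, limma adjusted p = 0.0573). Idh1 and Idh2 were at -0.01 and -0.08, and Ogt, which binds TET proteins, at 0.07, all not called. List medians lay between 0.02 and 0.16, near the 0.04 over all genes.

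**Figure D4:**
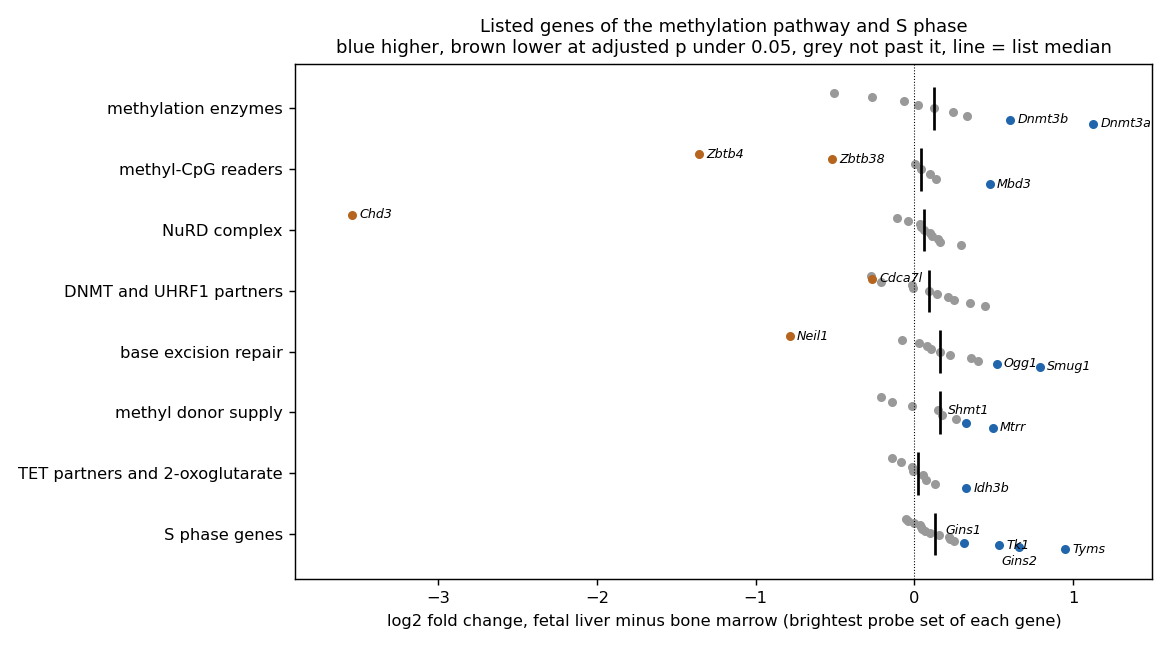
Log2 fold change (fetal liver over bone marrow) of the brightest probe set of each tested gene, by list; blue passed as higher, brown as lower, grey did not pass, and the vertical line is the list median. Medians stay between 0.02 and 0.16 while Zbtb4 is at -1.36 and Dnmt3a at 1.13. Chd3 is drawn at its measured signals, of which 2 in fetal liver are below the control level, so its point is no exact fold.

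The 3 genes whose brightest probe set followed Dnmt3a most closely over the 6 arrays were Homer3, Gins1 and Diaph3 (Pearson r = 0.999, 0.999 and 0.998). These r describe 6 arrays in 2 tissues that differ in all 4 genes. The log2 fold changes of these genes were 0.91, 0.31 and 0.47.

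The samples also differed in transcripts of other blood cells. All 11 tested markers of granulocytes and monocytes fell, with summed signals of 55303.5 to 66951 in bone marrow and 7273 to 9206 in fetal liver. No marker of theirs was below the control level on all 3 arrays of a tissue, and Camp was on 1 array. Lymphoid markers summed to 1942 to 3418 against 243 to 334, with 5 of 6 tested lower. Cd3e, Cd79a and Rag1 were below the control level on all fetal liver arrays, and Pax5 on all 6 arrays. Mast cell and basophil markers summed to 3989.7 to 5202 against 233 to 347, with 5 of 5 lower and Fcer1a, Gzmb and Mcpt8 below that level on all fetal liver arrays. Erythroid markers gave 1 higher and 2 lower of 6, with sums of 8863 to 17194 and 7223 to 8525. Hba-a1 was below that level on all 6 arrays, on its brightest probe set annotated to 1 gene. Probe sets annotated to several genes were not read, so this does not show that its RNA was absent. Endothelial markers gave 3 higher of 5 (2829.7 to 3284 against 3834 to 5078), and hepatoblast markers 1 higher and 2 lower of 4 (1895 to 2101 against 1491 to 2232). None of these was below that level on all 3 arrays of a tissue, but Cdh5, Alb, Hnf4a, Krt8, Ttr and Dlk1 were on 1 to 3 of the 6 arrays. Dlk1, the higher hepatoblast marker, had signals of 10.55, 11.4 and 19.5 in bone marrow and 1316, 1104 and 871 in fetal liver. Its log2 fold change was 6.35 (limma adjusted p = 7.39e-07), while Afp (-1.84) and Krt18 (-1.47) were lower. The Dlk1 value is no exact fold, since its bone marrow signals lay near the control level of 10.6. Dlk1 passed the filter only through fetal liver, and Fcer1a, Mcpt8 and Cd79a, among others, only through bone marrow. Megakaryocyte and sort markers were present on every array (22060.1 to 24194 against 16483 to 28045), with Gp9 higher, Kit lower and 5 of 7 not called. Their part in the values of the methylation genes was not tested.

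**Figure D5:**
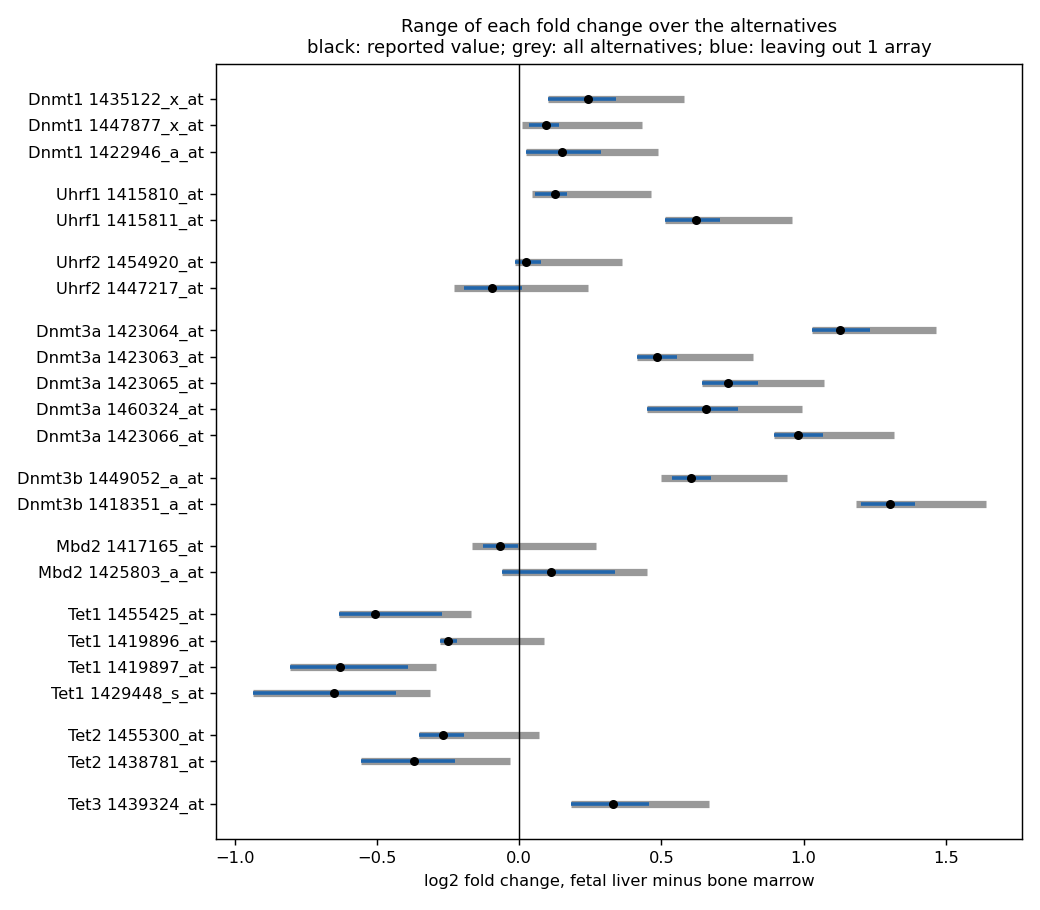
Reported log2 fold change of each probe set (black) with its range over all alternative settings (grey) and over the fits that leave out 1 array (blue). Every range of Dnmt3a and Dnmt3b stays above 0, the lowest value being 0.42, while ranges of Mbd2, Uhrf2, Tet1 (1419896_at) and Tet2 (1455300_at) cross 0.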

How the data were processed

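Expression was measured on 6 one-colour Affymetrix arrays, 3 per tissue. Each deposited value is the intensity of a probe set on a linear scale; MAS5 made it, as the submitters' processing notes have it, in a version not given in the sources used here. All arrays had been scaled to a trimmed mean of 500 (2% off each end). MAS5 signals spread widely when low, so ratios of dim probe sets are noisy.

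Of 45101 rows, 64 were controls. Signals were log2-transformed with no offset, and probe sets with a mean log2 signal above the 40th percentile were kept. limma 3.58.1 (R 4.3.3) was run per probe set on tissue alone (4 residual degrees of freedom, prior trended on intensity), with Benjamini-Hochberg adjustment over all 27022. A gene is read by its brightest probe set. The control level is the 95th percentile of 27 bacterial controls. An exact permutation test of 3 against 3 cannot go below 0.1 and was not used; the number of arrays limits the precision.

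All members were named, with up to 3 called genes per direction of each pathway list by size. The members and lists were chosen with earlier results of these data known. Alternatives were filters, normalizations, an offset, a floor, variance settings, array weights, a replicate block, 1 value a gene and leaving out each array. The fit was tested on simulated data. No pair of arrays was identical (0 found), and 0 columns were unmapped. Figures used matplotlib 3.10.9.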

Additional observations from a re-analysis of the deposited data

How the results depend on the processing

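Of 390 refits of single member probe sets, 360 kept the direction and the side of the threshold. The rises of Dnmt3b and of Dnmt3a on 1423064_at, 1423065_at and 1423066_at held in all of theirs. The filters, floor, variance settings, ordinary t statistics and replicate block cannot move a member's log2 fold change. In those refits only the call could change. The causes of the changes below were not tested. The 8 higher probe sets became 14 with median centring and 5 with ordinary t statistics (36.4% and 6.31% of all probe sets, against 11.8%). They were 7 to 8 when 1 array was left out, beside 6.75% to 12.4% of all. The 0 lower ones became 3 with array weights and 1 with ordinary t statistics (21.4% and 8.25% of all, against 15.0%), and 0 to 3 when 1 array was left out (2 without bone marrow replicate 2, 3 without fetal liver replicate 1). By brightest probe set, the 2 higher genes became 6 with median centring, where 36.4% of all probe sets were higher. They stayed 2 without any 1 array, beside 6.75% to 12.4% of all probe sets. The 0 lower became 1 with each gene's probe sets averaged, beside 19.1% of all genes, and 0 to 2 without 1 array.

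The median over all probe sets went from 0.00027 to 0.34 (log2) with median centring, which adds that shift to each gene, so small changes have no settled direction. It turned Mbd2 1417165_at to 0.27, Tet1 1419896_at to 0.087, Tet2 1455300_at to 0.070, Uhrf2 1447217_at to 0.24 and Cdca7l to 0.072. Uhrf2 1447217_at was 0.12 with quantile normalization. With probe sets averaged per gene Uhrf2 was -0.037 and Mbd2 0.023. Leaving out 1 array gave -0.059 to 0.34 for Mbd2 1425803_a_at, -0.013 to 0.077 for Uhrf2 1454920_at and -0.19 to 0.012 for Uhrf2 1447217_at.

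Of the pathway genes, the 6 higher became 3 with no filter, 35 with median centring, 2 with no variance trend, 10 with array weights and 1 with ordinary t statistics. Of all probe sets 6.67%, 36.4%, 8.33%, 19.3% and 6.31% were higher in these settings, against 11.8%. These are shares of probe sets, whereas the pathway counts are of genes. In the reported fit 15.9% of all genes were higher and 17.3% lower. The 5 lower became 2 with median centring, 3 with no variance trend and 3 with ordinary t statistics. Beside these, 9.87%, 13.1% and 8.25% of all probe sets were lower, against 15.0%. Without 1 array there were 1 to 5 higher and 2 to 6 lower, and every array but fetal liver replicate 1 left at most 3 of each when it was left out. The replicate block left 8 member probe sets called, and 4 pathway genes higher and 4 lower, beside 10.8% of all probe sets higher and 14.7% lower. Deviations of same-numbered arrays correlated at 0.0013, 0.11 and -0.16, and the labels do not say that numbers pair samples. The Tet1 probe sets, dimmer than the brightest ones of Dnmt1 and Uhrf1, have wide limma intervals, which limits what 3 arrays can show. On 1419896_at the arrays were tight, with SD 9.94 on a mean of 240 in bone marrow and 5.73 on 202 in fetal liver. Its interval also rests on the prior trended on intensity.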
